A study of Mus musculus with 10 samples.

Results

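The genes described are 9 chemokine receptors, measured in regulatory T cells (Treg) of the mouse. Treg are CD4 T cells defined by Foxp3 expression that hold back immune responses. They are Ccr7, Ccr2, Ccr4, Ccr6, Ccr8, Ccr9, Ccr10, Cxcr3 and Cxcr6, taken by name from 32767 genes listed in the tables of a knockout experiment. RNA was sequenced from Treg of spleen and lymph nodes of mice on a C57BL/6 background. Wild-type Treg (WT, 2 libraries) came from Foxp3cre/wt mice with both Tcf7 and Lef1 intact (Tcf7wt/wt, Lef1wt/wt), and dKO Treg (2 libraries) from Foxp3cre/wt mice in which both genes are flanked by loxP sites (Tcf7fl/fl, Lef1fl/fl). Tcf7 encodes TCF1, and Lef1 encodes a closely related transcription factor. In both groups Cre is driven from the Foxp3 locus, the mice carry 1 Foxp3 allele without Cre, and CD4-enriched cells were sorted on YFP. Treg without Cre can therefore remain in the same animals, outside the sorted population. The labels give neither ages nor whether libraries came from separate or pooled animals, and a p-value here reflects variation among the libraries alone, part of which may be technical.

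Chemokine receptors are G protein-coupled receptors that steer leukocytes along gradients of secreted chemokines. In T cells the set of receptors changes with differentiation: CCR7 guides resting cells into the T cell zones of lymph nodes, while receptors such as CCR2, CCR4, CCR8 and CXCR3 are associated with activated cells and with entry into inflamed or barrier tissues. In Treg the same receptors decide where suppression takes place. The comparison asked how the levels of these receptors differ when Tcf7 and Lef1 are deleted.

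TCF1 and LEF1 are known to bind DNA at a short core that reads TCAAAG on one strand and CTTTGA on the other. Because these are the deleted factors, the core was searched, on both strands and with no other motif, in the 250 bases before the start site of 8 RefSeq promoters (GRCm38.p6) that matched 7 of the receptors. It was present in 4 of the 8, against 13.8% of 32851 promoters of the same length, which is a description and no sign of binding. The stretches that hold it are those of Ccr4 (chr9:114496563-114496794, minus strand), both start sites of Ccr6 (chr17:8235793-8236042 and chr17:8242276-8242525, plus strand) and Cxcr6 (chr9:123806227-123806474, plus strand). They are shown 5′ to 3′ without the bases that the GENCODE vM21 annotation covers with an exon, and capitals mark the core.
Ccr4: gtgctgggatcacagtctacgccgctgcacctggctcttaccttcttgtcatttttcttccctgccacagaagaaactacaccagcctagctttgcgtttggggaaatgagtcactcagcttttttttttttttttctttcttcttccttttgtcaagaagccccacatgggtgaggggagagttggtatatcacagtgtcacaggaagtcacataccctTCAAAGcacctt
Ccr6, first start site: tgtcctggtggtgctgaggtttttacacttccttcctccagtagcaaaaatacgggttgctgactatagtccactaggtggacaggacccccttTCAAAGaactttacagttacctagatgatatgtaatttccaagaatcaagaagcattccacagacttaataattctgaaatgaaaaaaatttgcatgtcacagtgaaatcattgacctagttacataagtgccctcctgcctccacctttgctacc
Ccr6, second start site: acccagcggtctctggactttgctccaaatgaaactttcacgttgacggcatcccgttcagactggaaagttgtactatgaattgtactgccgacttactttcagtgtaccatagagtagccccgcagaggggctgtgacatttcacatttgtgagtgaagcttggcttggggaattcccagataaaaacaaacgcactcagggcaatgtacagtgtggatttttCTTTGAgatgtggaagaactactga
Cxcr6: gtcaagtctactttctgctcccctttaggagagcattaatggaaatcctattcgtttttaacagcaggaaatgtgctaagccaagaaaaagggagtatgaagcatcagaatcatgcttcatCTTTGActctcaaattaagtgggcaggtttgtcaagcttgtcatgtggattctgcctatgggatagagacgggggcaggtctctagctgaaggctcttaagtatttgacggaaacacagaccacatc
The core begins 30 bases before the start site of Ccr4, 156 and 25 bases before those of Ccr6, and 129 bases before that of Cxcr6. The promoters of Ccr2, Ccr8, Ccr9 and Cxcr3 did not hold these letters in the window searched. Annotated exons cover 233 of the 250 bases searched for Ccr2 and 122 of those for Cxcr3. The stretch of the Ccr9 window without exon bases (chr9:123766961-123767168) lies inside the gene as GENCODE vM21 annotates it. Measured levels of these genes are given below with the others.

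Levels are given as FPKM (fragments per kilobase, scaled for the size of the library), a unit per length that can be compared between genes. The tests used limma on log2(FPKM + 1) over the 10710 genes that reached 1 FPKM in 2 or more libraries, with Benjamini-Hochberg adjustment over all of them, and a log2 fold change is always dKO minus WT on that scale. All 9 receptors entered the test, and at an adjusted p of 0.05 none passed, against 0.7% of all genes tested (0.317% higher and 0.383% lower in dKO). At an unadjusted limma p under 0.05 there were 3 of the 9, Ccr2 on the higher side and Ccr7 and Cxcr6 on the lower, against 17.3% of all genes (8.72% higher and 8.63% lower). These 3 genes were also those without overlap between the WT and dKO libraries, which is 33.3% of the receptors, against 50.8% of all genes (26.6% higher and 24.2% lower). The median log2 fold change was -0.13 over the receptors, with 4 positive and 5 negative, and 0.01 over all genes. No count was available, so the absolute depth behind each value is unknown.

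The deleted genes were lower in both dKO libraries. Lef1 had 160 and 167 FPKM in WT against 71.6 and 62.8 FPKM in dKO, and passed the test (limma adjusted p = 0.016). Tcf7 had 456 and 501 FPKM in WT against 316 and 272 FPKM in dKO (limma adjusted p = 0.081). Foxp3 had 120 and 106 FPKM in WT against 126 and 114 FPKM in dKO, with overlap (limma adjusted p = 0.69). A gene-level value can include exons that a deletion leaves in place, so these levels check the labels in part. Why RNA of Tcf7 and Lef1 remained in dKO was not tested. The genes listed for Treg were Foxp3, Il2ra, Ctla4, Ikzf2, Cd4 and Cd3e, of which Cd4 and Cd3e are shared with other CD4 T cells. All 6 were present in each of the 4 libraries, with a summed level of 1012 to 1189 FPKM, and none of the 6 passed the test. They were not all level between the groups. Cd4 had 384 and 411 FPKM in WT against 187 and 264 FPKM in dKO (log2 fold change -0.83, SE 0.17, limma adjusted p = 0.14), and Ikzf2, which encodes the factor Helios, had 77.3 and 60.4 FPKM against 27.9 and 46.9 FPKM (log2 fold change -0.90, SE 0.27, limma adjusted p = 0.22). Neither overlapped between the groups, and both differences are larger in size than that of any of the 9 receptors. Il2ra and Cd3e were on the higher side in both dKO libraries, also without overlap, and Foxp3 and Ctla4 overlapped.

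Ccr7, the receptor for the lymph node chemokines CCL19 and CCL21, was by far the most abundant of the 9. It lies on chromosome 11 from 99144196 to 99155077 (GRCm38, minus strand). Its level was 208 and 227 FPKM in the WT libraries and 147 and 151 FPKM in the dKO libraries. Ccr7 was lower in each dKO library than in either WT library, and replicates of a group stood close together, 1.09-fold apart in WT and 1.02-fold in dKO. The group means were 217 ± 13.1 FPKM in WT against 149 ± 2.45 FPKM in dKO (SD over 2 libraries each), so that WT was 1.46-fold higher. The log2 fold change was -0.54 (SE 0.07, unadjusted 95% interval -0.72 to -0.36), and the limma adjusted p of 0.071 missed the threshold. It passed among protein-coding genes alone (adjusted p = 0.032) and without genes listed at 0 in any library (adjusted p = 0.045), within a range of 0.032 to 0.28 over 14 alternatives. In sorted bulk RNA, fewer cells that carry a receptor and less of its RNA per cell cannot be told apart, here or for the other receptors.

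S1pr1, the receptor for exit from lymph nodes, named after its values were seen, had 233 and 271 FPKM in WT against 310 and 260 FPKM in dKO, with overlap between the groups (limma adjusted p = 0.52).

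Ccr2, the receptor for CCL2 that draws monocytes and effector T cells to inflamed tissue, had the opposite direction to Ccr7. It lies on chromosome 9 from 124101950 to 124113557 (plus strand). The WT libraries held 10.8 and 10.3 FPKM and the dKO libraries 18.3 and 16.4 FPKM. Both dKO libraries lay above both WT libraries, by more than the replicates differed among themselves. Means were 10.6 ± 0.33 FPKM in WT against 17.4 ± 1.33 FPKM in dKO (SD, n = 2 per group), or 1.64-fold. The log2 fold change of 0.66 (SE 0.09, unadjusted 95% interval 0.42 to 0.91) missed the threshold with a limma adjusted p of 0.078. It passed among protein-coding genes alone (adjusted p = 0.039), within a range of 0.039 to 0.34 over 14 alternatives.

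Ccr2 is also a marker of monocytes, so the monocyte and macrophage markers were set beside it. The summed level of 12 such markers was 18.6 and 15.9 FPKM in the WT libraries, 17.4 FPKM in dKO replicate 1 and 83.8 FPKM in dKO replicate 2. Of those 12 markers, 5 reached the expression filter, namely Lyz2, Tyrobp, Cd68, Ms4a6c and Ly6c2. Lyz2, Tyrobp and Cd68 were highest in dKO replicate 2, at 31.9, 12.6 and 5.50 FPKM (log2 fold changes 1.41, 1.66 and 0.87). Of these only Tyrobp did not overlap between the groups. Ms4a6c overlapped at 6.99 to 9.22 FPKM (log2 fold change -0.08), a large part of the sum outside dKO replicate 2. Csf1r, the receptor for macrophage growth factor, had 8.51 FPKM in dKO replicate 2 and at most 0.26 FPKM in the other libraries, and Cd14 was listed at 0 in WT replicate 2 and dKO replicate 1. Ly6c2, a marker of classical monocytes that some T cells also express, had 2.62 and 3.38 FPKM in WT against 5.35 and 3.61 FPKM in dKO. It did not overlap between the groups and was highest in dKO replicate 1 (log2 fold change 0.44, SE 0.21, limma adjusted p = 0.36). Ccr2 was also highest in dKO replicate 1, where the marker sum was within the WT range, and without dKO replicate 2 its log2 fold change was 0.74. The part of monocytes in the Ccr2 values was not tested.

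Of the remaining receptors of inflamed tissue, Cxcr3 binds the interferon-induced chemokines CXCL9, CXCL10 and CXCL11. It lies on chromosome X from 101731535 to 101734269 (minus strand). Its level was 39.6 and 24.4 FPKM in WT against 22.6 and 25.98 FPKM in dKO. WT replicate 1 stood above the other 3 libraries, which were close to each other, and the groups overlapped. Its log2 fold change was -0.35 (SE 0.24, limma adjusted p = 0.51), and -0.01 without WT replicate 1, so the difference rests on that library.

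Cxcr6, the receptor for CXCL16, lies on chromosome 9 from 123806475 to 123811760 (plus strand), inside Fyco1 on the opposite strand with no exon base in common. Its level was 6.59 and 4.54 FPKM in WT against 3.75 and 3.004 FPKM in dKO. Cxcr6 too was lower in each dKO library than in either WT library, by a gap that was smaller than the one between the WT replicates. The means of 5.57 ± 1.45 and 3.38 ± 0.53 FPKM (SD, n = 2 per group) gave a log2 fold change of -0.57 (SE 0.20, unadjusted 95% interval -1.09 to -0.06), with a limma adjusted p of 0.25. Without WT replicate 1 it was -0.35.

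Ccr6, the receptor for CCL20 found on T cells of the interleukin-17 lineage and on Treg of the gut, lies on chromosome 17 from 8236043 to 8257141 (plus strand). It had 19.9 and 15.7 FPKM in WT against 11.2 and 17.0 FPKM in dKO. Of the dKO libraries, replicate 1 lay below the WT range and replicate 2 within it. For Ccr6 the log2 fold change was -0.33 (SE 0.22, limma adjusted p = 0.50), and it was -0.05 without dKO replicate 1 and -0.17 without WT replicate 1.

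Among the receptors of skin and other tissues, Ccr4 binds CCL17 and CCL22, chemokines made by dendritic cells. It lies on chromosome 9 from 114490316 to 114504916 (minus strand). The WT libraries held 32.6 and 27.2 FPKM and the dKO libraries 23.5 and 31.2 FPKM. The groups overlapped, and the means of 29.9 ± 3.80 and 27.4 ± 5.48 FPKM differed by less than the spread between the dKO replicates. The log2 fold change was -0.13 (SE 0.17, unadjusted 95% interval -0.56 to 0.30, limma adjusted p = 0.73), and 0.07 without dKO replicate 1.

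Ccr8, a receptor for CCL1 and a marker of tissue and tumour Treg, lies on chromosome 9 from 120092114 to 120094906 (plus strand). Its level was 17.6 and 9.51 FPKM in WT against 12.1 and 18.9 FPKM in dKO. The WT libraries were 1.85-fold apart and the dKO libraries 1.56-fold apart, while the group means of 13.6 and 15.5 FPKM were 1.14-fold apart. The log2 fold change of 0.21 (SE 0.34, unadjusted 95% interval -0.67 to 1.08, limma adjusted p = 0.79) changed sign to -0.21 without WT replicate 2 and to -0.09 without dKO replicate 2. The interval leaves room for a difference of either sign.

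Ccr10, the receptor for the epithelial chemokines CCL27 and CCL28, was the least abundant. It lies on chromosome 11 from 101172997 to 101175443 (minus strand). It had 1.65 and 0.63 FPKM in WT against 1.26 and 1.84 FPKM in dKO. The WT libraries were 2.60-fold apart and enclosed dKO replicate 1. On the log2(FPKM + 1) scale, which understates changes at such low levels, the log2 fold change was 0.29 (SE 0.29, limma adjusted p = 0.66), and -0.06 without WT replicate 2.

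Ccr9, the receptor for CCL25 that directs T cells to the small intestine and is also found on plasmacytoid dendritic cells, lies on chromosome 9 from 123678439 to 123784330 (plus strand). It had 5.95 and 9.07 FPKM in WT against 12.8 and 8.71 FPKM in dKO. WT replicate 1 was the lowest and dKO replicate 1 the highest, and the other two lay between them with the WT library above the dKO library. For Ccr9 the log2 fold change was 0.47 (SE 0.25, unadjusted 95% interval -0.19 to 1.12, limma adjusted p = 0.41), and 0.20 without WT replicate 1 or 0.21 without dKO replicate 1. Siglech, a defining marker of plasmacytoid dendritic cells, was at 0.11 to 0.54 FPKM in the 4 libraries, highest in dKO replicate 2. The summed level of that 10-gene list, which holds Ccr9 itself, was 87.2 and 93.0 FPKM in WT against 101 and 105 FPKM in dKO, of which Bst2, which T cells also express, made up 61.3 to 75.8 FPKM. Bst2 was on the higher side in both dKO libraries, without overlap (log2 fold change 0.16, SE 0.09, limma adjusted p = 0.44). Ly6d, another gene of the list, had 1.54 and 1.95 FPKM in WT against 3.88 and 3.18 FPKM in dKO, without overlap, lowest in WT replicate 1 and highest in dKO replicate 1 as Ccr9 was (log2 fold change 0.72, SE 0.16, limma adjusted p = 0.15). Irf8, Runx2 and Tcf4, also tested from the list, overlapped between the groups (log2 fold changes -0.004, -0.07 and 0.04). Irf8 and Runx2 were highest in WT replicate 1 and Tcf4 in dKO replicate 1. Klk1, Cox6a2 and Spib, the rest of the list, did not reach the filter and were at or under 0.49 FPKM. Each of them was higher in both dKO libraries than in either WT library, and highest in dKO replicate 2. The part of plasmacytoid dendritic cells in the Ccr9 values was not tested. An antisense transcript that covers 18.8% of the annotated Ccr9 exon bases was listed at no more than 0.27 FPKM. Whether the authors' counting used strand is not given in the sources used here.

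**Figure D1:**
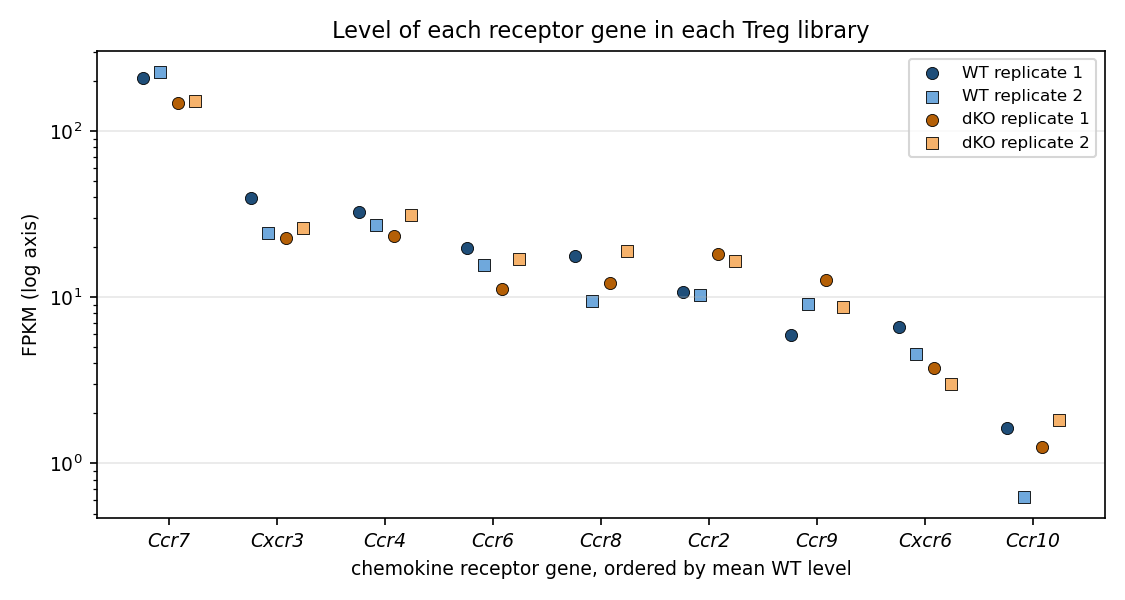
FPKM of the 9 receptor genes (log axis) in each of the 4 libraries, with WT in blue and dKO in orange and 1 point per library. Ccr7 stands at 147 to 227 FPKM, above all others, and WT and dKO are separated for Ccr7, Ccr2 and Cxcr6 alone.

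In WT, Ccr7 was followed by Cxcr3 at a mean of 32.0 FPKM, Ccr4 at 29.9, Ccr6 at 17.8, Ccr8 at 13.6, Ccr2 at 10.6, Ccr9 at 7.51, Cxcr6 at 5.57 and Ccr10 at 1.14 FPKM. The ranges of the 2 libraries overlapped between the neighbours Cxcr3 and Ccr4, Ccr6 and Ccr8, Ccr8 and Ccr2, and Ccr9 and Cxcr6, so their order is not settled. In dKO the order was Ccr7, Ccr4, Cxcr3, Ccr2, Ccr8, Ccr6, Ccr9, Cxcr6 and Ccr10. There the ranges overlapped between the neighbours Ccr4 and Cxcr3, Ccr2 and Ccr8, Ccr8 and Ccr6, and Ccr6 and Ccr9, so that order is not settled either. Ranked within the library among genes with at least 1 FPKM, Ccr7 exceeded 96.5% and 96.6% of genes in WT and 94.8% and 94.9% in dKO. Ccr2 exceeded 38.5% and 36.0% of genes in WT and 53.3% and 50.8% in dKO.

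Added together, the 9 receptors came to 343 and 328 FPKM in WT against 253 and 274 FPKM in dKO. Without Ccr7 the sum was 135 and 101 FPKM in WT against 105 and 123 FPKM in dKO, so the groups were separated by the whole sum and overlapped once Ccr7 was left out. Ccr7 made up 60.7% and 69.1% of the sum in WT and 58.3% and 55.1% in dKO. Ccr2 made up 3.15% of it in both WT libraries and 7.24% and 6.00% in dKO. The ratio of Ccr7 to Ccr2, which does not depend on the scaling of a library, was 19.3 and 21.9 in WT and 8.05 and 9.18 in dKO. Both genes of this ratio were chosen after their values were seen.

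**Figure D2:**
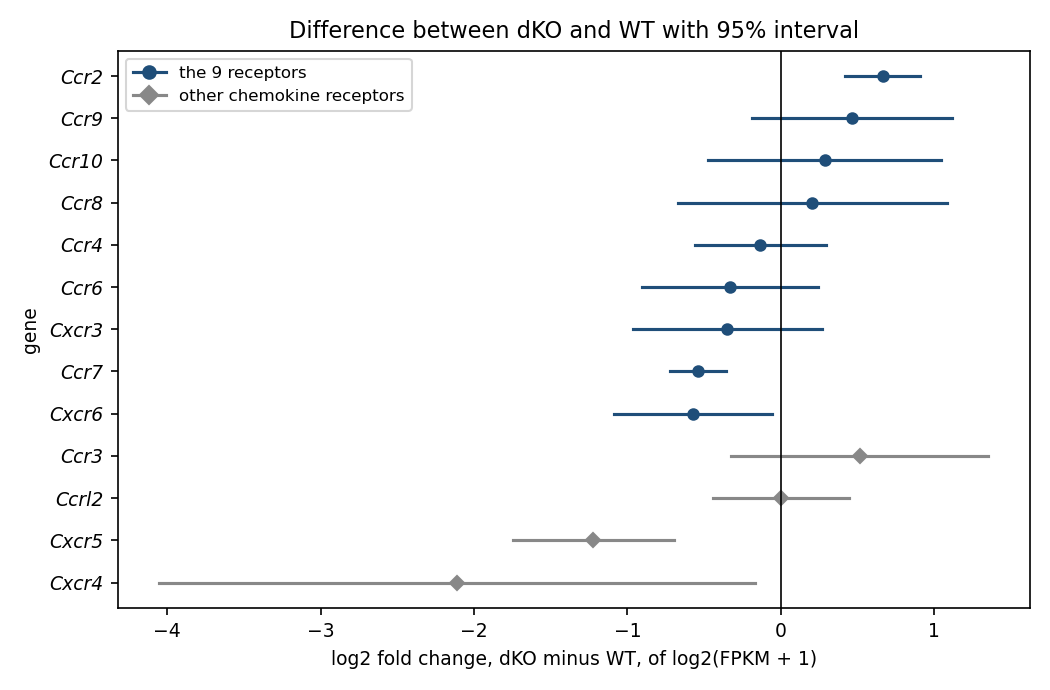
Log2 fold change, dKO minus WT, of log2(FPKM + 1), with unadjusted 95% limma intervals, for the 9 receptors (circles) and for the other chemokine receptors Cxcr4, Cxcr5, Ccr3 and Ccrl2 (diamonds). The intervals of Ccr2, Ccr7 and Cxcr6 lie on 1 side of 0 among the 9, and no gene shown passed after adjustment over all genes.

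Replicates of the receptors differed more than those of most genes, with a median SE of 0.22 over the 9 against 0.11 over all genes tested. Ccr4, Ccr6, Ccr8, Ccr10 and Cxcr3 shared an order of libraries. Each was higher in WT replicate 1 than in WT replicate 2 and higher in dKO replicate 2 than in dKO replicate 1. This holds for 5 of 9 receptors (55.6%), against 22.7% of all genes tested. The order was picked after the values were seen, so the shares are a description and no test. The proliferation genes Mki67 and Top2a, looked at after the data were seen, had the same order, with 4.78 and 2.13 FPKM of Mki67 in WT against 3.57 and 4.98 FPKM in dKO, and 15.2 and 7.43 FPKM of Top2a in WT against 12.3 and 19.6 FPKM in dKO. Their part in the receptor levels was not tested. Ccr7 had little of this spread, and Ccr9 had the reverse order in both groups.

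**Figure D3:**
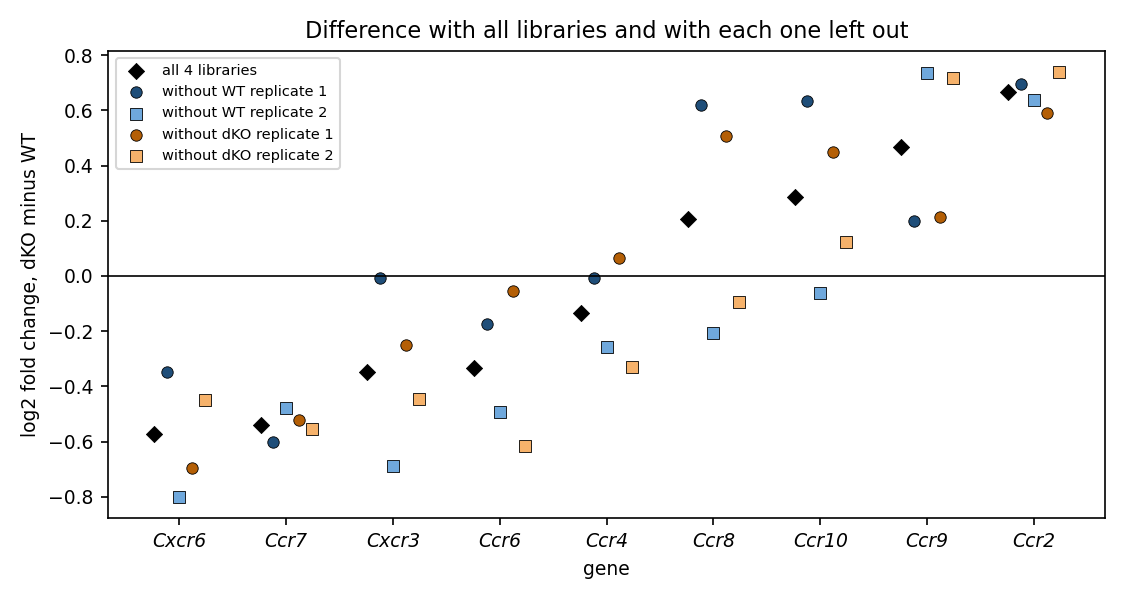
Log2 fold change, dKO minus WT, of each receptor with all 4 libraries (black diamonds) and with each library left out in turn (coloured points). Ccr7 stays between -0.60 and -0.48 and Ccr2 between 0.59 and 0.74, while Ccr8 runs from -0.21 to 0.62 and Ccr10 and Ccr4 also cross 0.

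Of the 9 receptors, Ccr9, Cxcr6 and Ccr2 belong to a cluster of chemokine receptor genes on chromosome 9. Ccr2 begins 424 kb and Cxcr6 128 kb from the GENCODE vM21 start of Ccr9. The RefSeq start site used for the Ccr9 promoter is another one, nearer to both. Levels in the cluster were uneven. Between Cxcr6 and Ccr2, Xcr1 and Ccr1 stayed at or under 0.31 FPKM, Ccr1l1 was listed at 0 in each of the 4 libraries, and Ccr3, the eotaxin receptor, had 0.81 to 2.91 FPKM. Of the neighbouring receptors, Cxcr6 was lower and Ccr2 higher in both dKO libraries. Fyco1, the gene that contains Cxcr6, was on the higher side in both, with 4.87 and 5.51 FPKM in WT against 6.11 and 5.82 FPKM in dKO (limma adjusted p = 0.50), while Ccr9, Lztfl1 and Ccr3 overlapped between the groups.

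**Figure D4:**
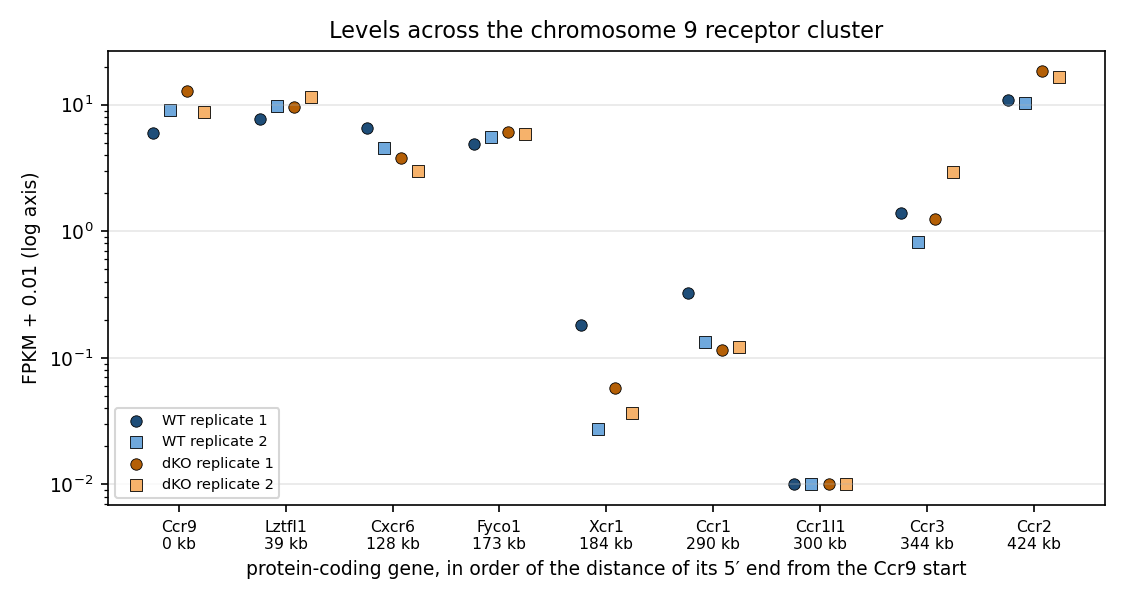
FPKM + 0.01 (log axis) of 9 protein-coding genes of the chromosome 9 receptor cluster in each of the 4 libraries, ordered by the distance of their 5′ end from the GENCODE vM21 start of Ccr9. Ccr2 reaches 18.3 FPKM, while Xcr1, Ccr1 and Ccr1l1 stay at or under 0.31 FPKM, and the dKO points of Ccr2 lie above its WT points.

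Across the wider chemokine receptor family, 15 other receptors were listed and 5 were tested, of which none passed, with a median log2 fold change of 0.00. Cxcr4, the receptor for CXCL12, and Cxcr5, which guides cells into B cell follicles, were lower in both dKO libraries (Cxcr4 at 184 and 179 against 17.9 and 93.7 FPKM, Cxcr5 at 24.1 and 20.1 against 7.21 and 10.8 FPKM), with log2 fold changes of -2.11 (unadjusted 95% interval -4.05 to -0.17) and -1.22 (unadjusted 95% interval -1.75 to -0.69). Their limma adjusted p values were 0.26 and 0.099. Of 29 chemokine genes listed, 9 were at 0 in each of the 4 libraries, 8 were tested and none passed, with 6 positive, a median log2 fold change of 0.60, and 5 of the 8 without overlap between the groups (62.5%, against 50.8% of all genes). Ccl5 had 35.1 and 16.9 FPKM in WT against 65.4 and 84.1 FPKM in dKO, and Ccl4 had 0.22 FPKM and a listed 0 in WT against 1.44 and 2.23 FPKM in dKO. Both encode chemokines of inflammation, and their limma adjusted p values were 0.15 and 0.11. Ligands of the 9 receptors that reached the filter, named after their values were seen, were Ccl1, Ccl20, Ccl25, Ccl27a and Cxcl10, at 0.34 to 4.42 FPKM in the 4 libraries.

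Genes that act downstream of these receptors were expressed throughout. All 27 listed genes of chemokine receptor signalling were tested and none passed, with 9 positive and 18 negative log2 fold changes and a median of -0.08. The largest differences without overlap were those of Rasgrp2, which activates the integrin switch Rap1 (181 and 215 FPKM in WT against 333 and 266 FPKM in dKO, limma adjusted p = 0.16), and of Dock8, a guanine nucleotide exchange factor for migrating T cells (70.1 and 70.5 against 54.5 and 52.9 FPKM, limma adjusted p = 0.099). Of 14 genes of receptor desensitization, 12 were tested and none passed, with a median of -0.04. Rgs1, which shortens G protein signals, had 195 and 216 FPKM in WT against 87.4 and 117 FPKM in dKO (log2 fold change -1.01, SE 0.15, limma adjusted p = 0.089). Arrb2, an arrestin that uncouples and internalizes receptors, had 152 and 148 FPKM in WT against 128 and 101 FPKM in dKO (limma adjusted p = 0.23).

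Of 17 other trafficking receptors, 17 were tested and none passed, with a median log2 fold change of 0.00. Gpr15, a receptor for homing to the large intestine, had 7.67 and 6.41 FPKM in WT against 3.19 and 2.48 FPKM in dKO (limma adjusted p = 0.083). Itgae, the integrin chain CD103 that binds E-cadherin on epithelium, had 27.6 and 20.4 against 31.7 and 43.7 FPKM (limma adjusted p = 0.24). Among 19 transcription factors tied to trafficking receptors, 18 were tested, 1 was higher and none was lower, with a median of 0.02. Over all genes tested, 0.317% were higher and 0.383% lower. That gene was Id3, whose product blocks DNA binding by E proteins, with 92.2 and 90.6 FPKM in WT against 163 and 147 FPKM in dKO (log2 fold change 0.75, SE 0.08, limma adjusted p = 0.042).

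The profile of each receptor without overlap was compared with those of 8022 protein-coding genes with a mean of at least 5 FPKM, by the root mean square difference of the centred log2(FPKM + 1) values over the 4 libraries. Ccr7 was most like Dgka, which encodes a kinase of diacylglycerol (difference 0.020), with 259 and 281 FPKM in WT against 179 and 182 FPKM in dKO, and like Inpp4b, which encodes a lipid phosphatase (difference 0.021). Ccr2 was most like Slc16a6, of the monocarboxylate transporter family (difference 0.019), with 8.52 and 8.30 FPKM in WT against 14.9 and 13.6 FPKM in dKO, and like 1700025G04Rik (difference 0.024). Cxcr6 was most like the ubiquitin ligase gene Rnf125 (difference 0.035) and the phosphatase gene Ptpn13 (difference 0.041). With 4 libraries and 8022 genes, close profiles of this kind are a description.

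Markers of other cell types also differed between libraries. The summed level of 7 CD8 T and NK cell markers was 51.3 and 38.3 FPKM in WT against 56.6 and 61.5 FPKM in dKO, and 4 were tested. Prf1, which encodes the pore-forming protein perforin, had 3.68 and 4.39 FPKM in WT against 17.5 and 10.9 FPKM in dKO, without overlap (log2 fold change 1.56, SE 0.23, limma adjusted p = 0.087). Eomes was on the lower side in both dKO libraries, at 1.43 and 1.37 against 0.59 and 0.84 FPKM, and Nkg7 and Cd8b1 overlapped between the groups, with Cd8b1 at 14.1 to 16.5 FPKM. Cd8a stayed at or under 0.49 FPKM and Ncr1, a defining NK receptor, at or under 0.073 FPKM. The sum of 7 B cell markers was 16.9 and 17.5 FPKM in WT against 24.5 and 25.0 FPKM in dKO, of which Cd79b made up 14.1 to 23.3 FPKM, while Pax5, a defining B cell factor, was at or under 0.28 FPKM. Cd22, the other B cell gene tested, had 1.43 and 2.30 FPKM in WT against 0.94 and 0.37 FPKM in dKO. The sum of 6 genes of naive conventional CD4 T cells was 495 and 548 FPKM in WT against 499 and 407 FPKM in dKO. Among them Igfbp4 was lower and Pde3b higher by the test (limma adjusted p = 0.028 and 0.045), against 0.383% lower and 0.317% higher over all genes tested. Markers of conventional dendritic cells, neutrophils and erythroid cells had no tested gene, with sums of at most 0.69, 1.47 and 3.69 FPKM. The part of these cells in the values of Ccr7, Ccr2 and Cxcr6 was not tested.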

How the data were processed

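The deposited values are FPKM, made by the authors with STAR and Cuffdiff on GRCm38 per the submitters' processing notes; tool versions, annotation and library scaling, not given in the sources used here, are left unstated. Libraries were made with a stranded TruSeq mRNA kit, per the labels' protocols. The 4 tables list 32767 genes each, alternating with blank rows, and end before the identifiers of 22945 genes of GENCODE vM21 (1757 protein-coding), which were not analysed here. The commonest ratio of the lowest values put the depth of WT replicate 2, dKO replicate 1 and dKO replicate 2 at 72.2%, 67.8% and 71.2% of that of WT replicate 1. That ratio was held, within a narrow bin, by 79 of 2258, 62 of 2207 and 56 of 2271 genes, so these depths are rough. Between 10435 and 10678 genes per library reached 1 FPKM. The subset tables were not used here, and a few listed genes are not reported here.

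limma 3.58.1 in R 4.3.3 was fitted to log2(FPKM + 1) with a variance trend (2 residual and 2.85 prior degrees of freedom, two-sided). It was run on simulated data with normal noise on the log scale, whose spread came from the same fit. That run met the assumptions of the test by design, so it cannot show whether these data meet them. The receptors, lists and tests were chosen with earlier results of these data known. Of each list the text names the genes that passed, or else the 2 with the largest change without overlap between groups, and for each tested receptor without overlap the 2 genes of closest profile; exceptions are marked. Alternatives were another pseudocount, filter, scaling or variance model, each library left out, and a replicate block.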

Additional observations from a re-analysis of the deposited data

How the results depend on the processing

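The count of 75 genes passing over all genes was 6 with no filter, 117 without genes listed at 0 in any library, 171 among protein-coding genes alone, 43 with no variance trend, 21 with a replicate block, and 14 to 136 with 1 library left out. It was 53 to 76 under the remaining alternatives. The count of receptors passing, 0 with all settings as reported, was 1 (Ccr7) without genes listed at 0 in any library and 2 (Ccr7 and Ccr2) among protein-coding genes alone; the cause was not tested. It was 0 with 1 library left out, whichever it was, and under every other alternative run.

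Direction was kept under every alternative run by Ccr7 (-0.60 to -0.48), Ccr2 (0.52 to 0.74), Cxcr6 (-0.80 to -0.33), Ccr6 (-0.62 to -0.05), Ccr9 (0.20 to 0.73) and, barely, Cxcr3 (-0.69 to -0.01). With 1 library left out, Ccr4 ranged from -0.33 to 0.066 (without dKO replicate 1), Ccr8 from -0.21 to 0.62 (with -0.09 without dKO replicate 2) and Ccr10 from -0.063 (without WT replicate 2) to 0.63, each crossing 0. Ccr10 and Cxcr6 gave no value at a mean of at least 5 FPKM.

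Replicate numbers share no stated animal or batch, and the differences between replicates 1 and 2 had a Pearson r of 0.055 between WT and dKO across 8351 genes, so the numbers were not taken as pairs. With the replicate block no receptor passed. Without counts, depth limits the low values of Ccr10 most.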
